A study of Mus musculus with 8 samples.

Results

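The genes described here encode the proteins of the cytosolic ribosome. They were chosen by symbol, as the rows named Rpl, Rps or Rplp with a number and at most 1 letter (a, l or x) after it, plus Rpsa. Of 22923 gene symbols 80 met that rule, 48 of the large subunit and 32 of the small subunit. RNA from livers of C57BL/6 mice was sequenced in 4 groups, which were Xbp1-/- mice on a high-fat diet, Xbp1-/- mice on chow, Xbp1flox mice on the high-fat diet and Xbp1flox mice on chow. Xbp1 was lacking in the liver of the knockout mice, and what drove the deletion is not given in the sources used here. The high-fat diet included a high-fructose corn syrup equivalent, and feeding lasted 4 weeks. Each group of 4 mice was pooled into 2 libraries, and its file holds 1 RPKM value (reads per kilobase of transcript, scaled to the mapped reads of the library) per gene. No difference below therefore has a replicate check, the spread between libraries is unknown, and no p-value is given.

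The ribosome joins a small subunit, which reads the messenger RNA, to a large subunit, which forms peptide bonds. Nearly all of its proteins are needed in equal numbers, and the acidic proteins of the stalk are the exception. Many of their messenger RNAs begin with a C followed by a stretch of C and T letters, the 5' terminal oligopyrimidine (TOP) motif, through which the kinase mTOR controls their translation. Hepatocytes carry many ribosomes bound to the endoplasmic reticulum, where secreted proteins are made, and Xbp1 encodes a transcription factor that serves the capacity of that compartment. Xbp1 itself stood at 34.1 RPKM in knockout high-fat and 44.2 RPKM in knockout chow livers, against 90.7 RPKM in flox high-fat and 112 RPKM in flox chow livers. That value covers the whole gene and not a deleted part alone.

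Sequences around the annotated starts of 9 members described below are shown as examples. These members include genes with some of the largest or smallest changes, an abundant member (Rpl28), a stalk gene (Rplp2) and a signalling gene (Rps6). Among all members with a window, 18 of 60 (30%) have a run of at least 5 C or T letters over the start base. Such runs are more frequent among the 9 shown. Rps26, Rpl5, Rpl22, Rpl12, Rps16 and Rps23, also described below for their changes, have no C or T run over the start. Each sequence shown is 30 bases of RefSeq sequence on GRCm38.p6, the assembly that mm10 denotes, with 20 bases before the start and 10 from it on. Capitals mark the run of C or T letters that includes the start base.
Rps27: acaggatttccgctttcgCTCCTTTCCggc
Rps21: gcacttaccgaggacccgCCCTCCTgccca
Rpl38: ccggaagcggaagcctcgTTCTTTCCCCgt
Rplp2: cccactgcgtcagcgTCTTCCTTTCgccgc
Rpl28: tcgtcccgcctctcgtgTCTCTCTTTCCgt
Rpl31: cacctcttcctcctcgCCTCCCCgtgaccc
Rps6: gggttaagcggaagtcgggCCTCTTTTTCg
Rpl10: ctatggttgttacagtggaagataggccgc
Rpl13a: gataagaaaccctgcgacaagacctcctcc
The windows lie at chr3:90213639-90213668 on the minus strand for Rps27, chr2:180257359-180257388 on the plus strand for Rps21, chr11:114668560-114668589 on the plus strand for Rpl38 and chr7:141447631-141447660 on the plus strand for Rplp2. Those of Rpl28 and Rpl31 lie on the plus strand at chr7:4792945-4792974 and chr1:39367831-39367860. Rps6 lies at chr4:86857358-86857387 on the minus strand, Rpl10 at chrX:74270796-74270825 on the plus strand and Rpl13a at chr7:45128736-45128765 on the minus strand. The windows of Rpl10 and Rpl13a carry no capitals because their annotated start base is G, so no run of C or T letters covers it.

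A start window was found for 60 members. A run of at least 5 C or T letters over the start base was present in 18 of them (30%), against 9.95% of all 27025 genes with a window. The letters CCGGAAG, searched on both strands from 250 bases before to 50 bases from the start on, occurred in 25 of the 60 (41.7%), against 9.12% of all genes. TATAAA occurred in 8.33% of the members' windows and 14.2% of all, and AGATGGCG in 5% of the members' windows and 2.06% of all. None of these 3 motifs contains another. A match here is a string of letters and not a measured site, and an annotated start may lie some bases from the one used in liver.

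Of a list of 79 genes for the ribosomal proteins common to all cells, 76 were members. Rpl34 shares a row with a pseudogene, and Fau, which encodes a ribosomal protein fused to a ubiquitin-like protein, carries another kind of symbol. The remaining members are the paralogs Rps27l, Rpl3l, Rpl10l and Rpl39l. Rpl10l was listed at 0 in each group. Rpl39l was listed at 0.0345 and 0.0232 RPKM in knockout livers on high fat and chow, at 0.0239 RPKM in flox livers on high fat and at 0 in flox livers on chow. Rpl3l, a paralog of striated muscle, was listed at 0.0228 and 0.0701 RPKM in knockout livers on high fat and chow, and at 0.0146 and 0.0171 RPKM in flox livers on high fat and chow. Their partners were abundant, with Rpl3 at 133 and 183 RPKM in knockout livers on high fat and chow, and 139 and 169.5 RPKM in flox livers on high fat and chow. Rpl39 stood at 125 RPKM in knockout high-fat and 208 RPKM in knockout chow livers, against 139 RPKM in flox high-fat and 187 RPKM in flox chow livers. Rps27l, a p53-responsive gene in human cells, was as high as many core members, at 154 and 226 RPKM in knockout livers on high fat and chow, and 181 and 212 RPKM in flox livers on high fat and chow. The 77 members with at least 1 RPKM in a group (45 large, 32 small) are used from here on.

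**Figure D1:**
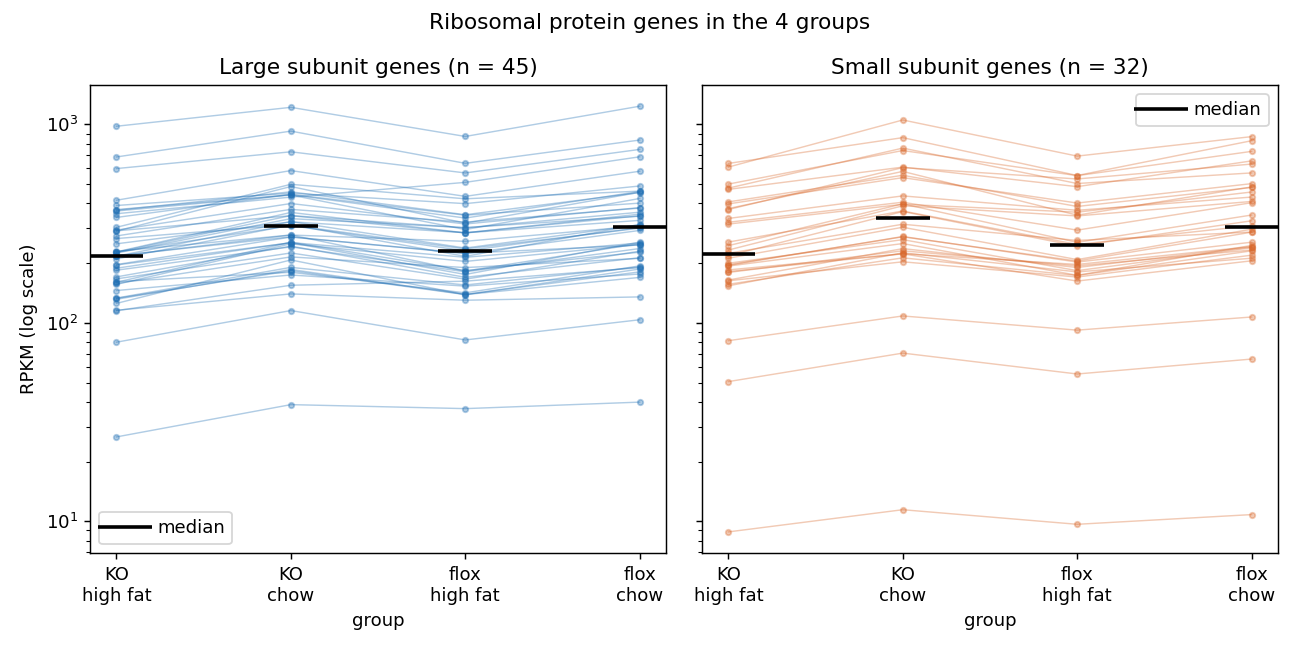
RPKM on a log scale in the 4 groups for the 45 large subunit genes (left) and the 32 small subunit genes (right). Each line joins the 4 values of 1 gene and black bars are medians, which are lower in both high-fat groups (217.8 to 246 RPKM) than in both chow groups (303 to 339 RPKM).

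The levels per length spanned a wide range, although the proteins are needed in matched amounts. Rpl41, which encodes the smallest protein of the large subunit, was the most abundant at 979 and 1219 RPKM in knockout livers on high fat and chow, and 869.7 and 1235 RPKM in flox livers on high fat and chow. It was followed in the large subunit by Rpl28, at 686 and 925 RPKM in knockout livers on high fat and chow, and 637 and 834 RPKM in flox livers on high fat and chow. Rpl23a, which contacts the signal recognition particle at the tunnel exit, stood at 599 RPKM in knockout high-fat and 728 RPKM in knockout chow livers, against 569.7 RPKM in flox high-fat and 748 RPKM in flox chow livers. Rpl36 stood at 415 RPKM in knockout high-fat and 585 RPKM in knockout chow livers, against 434 RPKM in flox high-fat and 581 RPKM in flox chow livers, and Rpl10 was the next by mean level. In all of these genes both high-fat values were below both chow values except in Rpl10. The share of all genes with this order was not counted.

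In the small subunit Rps27, a zinc finger protein, was first at 609.7 and 1053 RPKM in knockout livers on high fat and chow, and 693 and 868 RPKM in flox livers on high fat and chow. Rps26, at the exit of the messenger RNA channel, stood at 636 RPKM in knockout high-fat and 858 RPKM in knockout chow livers, against 553 RPKM in flox high-fat and 828 RPKM in flox chow livers. Rps2, at the entry of that channel, came next with 501 and 739 RPKM in knockout livers on high fat and chow, and 552 and 731 RPKM in flox livers on high fat and chow. Rps15, near the decoding site, stood at 471 RPKM in knockout high-fat and 609 RPKM in knockout chow livers, against 486 RPKM in flox high-fat and 655 RPKM in flox chow livers. Rps15a was lowest of the 77, at 8.85 and 11.5 RPKM in knockout livers on high fat and chow, and 9.67 and 10.8 RPKM in flox livers on high fat and chow. Each of these small subunit genes, like most of the abundant large subunit genes, had both high-fat values below both chow values. How many of all genes had this order was not counted, so it is not shown to be particular to these members. Of all genes, 52.5% were lower on high fat in flox livers and 66.4% in knockout livers. Reads of ribosomal protein genes are hard to place, because 74 of the 77 had at least 1 annotated pseudogene copy of at least 95% identity, with a median of 6 copies and up to 60 for Rpl21. How the authors' counting treated such reads is not given in the sources used here, so single levels are uncertain.

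On the high-fat diet, ribosomal protein genes were lower in flox livers. All 77 members past the filter had less RPKM on high fat than on chow, against 52.5% of the 10322 genes compared, with a median log2 change of -0.33 (a level of 0.795 of that on chow). Log2 changes here are log2((a + 1)/(b + 1)) of RPKM. Large and small subunit genes both had a median of -0.33, and their medians differed by 0.01. No member was lower by 1.5-fold or more (background 1.68%) or higher by as much (background 1.23%). By 1.25-fold or more, 42 were lower (background 7.92%) and 0 higher (background 5.97%). The summed level of the members was 21388 RPKM in flox high-fat livers and 27305 RPKM in flox chow livers, which is 4.63% and 5.32% of all RPKM. With each group scaled so that the median log2 ratio over genes was 0, all 77 were still lower (50.2% of all genes), with a median of -0.32. With the groups scaled to equal sums over genes other than the 50 most abundant, 74 were lower (30.8% of all genes), and the median was -0.20.

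The lowest ratios in flox livers were those of Rps26, Rpl13 and Rpl13a. Rps26, whose values are given above, had a log2 change of -0.58. Rpl13 stood at 196 and 253 RPKM in knockout livers on high fat and chow, and 175 and 255 RPKM in flox livers on high fat and chow (log2 change in flox livers -0.54). Rpl13a, which in human cells can leave the ribosome after interferon-gamma, stood at 266 and 313 RPKM in knockout livers on high fat and chow, and 216 and 314 RPKM in flox livers on high fat and chow (log2 change in flox livers -0.53). At the other end was Rpl5, which with Rpl11 and 5S ribosomal RNA forms a particle that can bind the p53 regulator MDM2. Rpl5 stood at 116 and 140.0 RPKM in knockout livers on high fat and chow, and 130.1 and 135 RPKM in flox livers on high fat and chow (log2 change in flox livers -0.06). Rpl22, which mice need for T cell development, stood at 26.6 and 38.8 RPKM in knockout livers on high fat and chow, and 37.0 and 39.9 RPKM in flox livers on high fat and chow (log2 change in flox livers -0.11). Rpl38, which mice need for axial patterning, stood at 303 and 499 RPKM in knockout livers on high fat and chow, and 422 and 461 RPKM in flox livers on high fat and chow (log2 change in flox livers -0.13). These last 3 genes were named for the smallest diet changes in flox livers, so their flox values on both diets lie close together by choice. Their knockout value on high fat was the lowest of the 4 groups. Because all 77 members were lower on high fat in both genotypes, this order held in the 54 lower in knockout livers on that diet. In that knockout comparison 70.1% of all genes were lower. With each group scaled to a median log2 ratio of 0 over genes, 24 members were lower there (48.4% of all genes).

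Each member was also set against genes of similar RPKM, by taking the median change of the 200 other genes nearest to it in mean RPKM. In flox livers the typical change of these genes with the diet was -0.16, and the members' median difference from them was -0.16, with 72 of 77 below. The middle 50% of members spanned 0.18 on the log2 scale, against 0.28 for the 1277 genes that were near any member in RPKM. For the diet in knockout livers these spans were 0.19 and 0.38, for knockout against flox on high fat 0.22 and 0.43, and on chow 0.15 and 0.32. The members' changes were thus spread over a narrower range than those of the 1277 genes in each of the 4 comparisons. Those genes are pooled over all members and each is counted once. Unlike the 200 genes per member, they are not matched to the members' RPKM, so the spans compare unlike ranges of level.

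**Figure D2:**
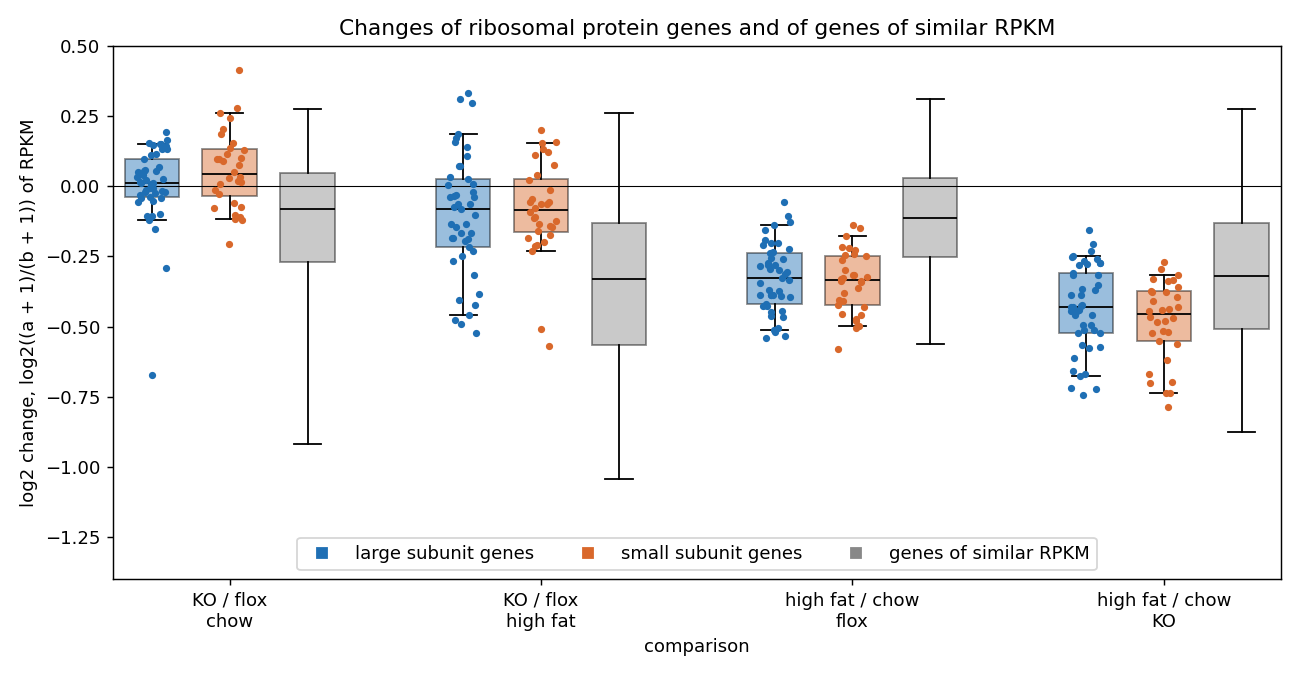
Log2 change of RPKM in 4 comparisons for the large subunit genes (blue), the small subunit genes (orange) and the 1277 genes near any member in RPKM (grey). The grey genes are pooled with each counted once, and their medians are -0.08, -0.33, -0.11 and -0.32 from left to right. They differ from the typical changes of genes of similar RPKM in the text, which are matched to each member. Boxes show the quartiles, whiskers the 5th and 95th percentiles and points single members, and each member lies below 0 for the diet in both genotypes.

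In knockout livers ribosomal protein genes were also lower on high fat. All 77 members past the filter had less RPKM on high fat than on chow, against 66.4% of 10328 genes, with a median log2 change of -0.44 (0.736 of the chow level). The large subunit median was -0.43 and the small subunit median -0.46. By 1.5-fold or more, 14 members were lower (background 4.7%) and 0 higher (background 2.68%). By 1.25-fold or more, 60 were lower (background 21.5%) and 0 higher (background 7.92%). Summed levels were 20302 RPKM in knockout high-fat and 27931 RPKM in knockout chow livers, or 5.53% and 6.05% of all RPKM. Genes of similar RPKM had a typical change of -0.41, and the members' median difference from them was -0.03, with 48 of 77 below. Scaling moved the size of this change. At a median log2 ratio of 0 over genes it was -0.30 with all 77 lower (48.2% of all genes) and 4 past 1.5-fold. At equal sums over genes other than the 50 most abundant it was -0.15 with 65 of 77 lower (30.3% of all genes) and 0 past 1.5-fold.

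As deposited, the 14 members lower by 1.5-fold or more in knockout livers on high fat were 7 of the large and 7 of the small subunit. They included Rplp1, Rpl38, Rpl39, Rpl37a, Rpl36a, Rplp2 and Rpl7a of the large subunit and Rps27, Rps21, Rps28, Rps29 and Rps16 of the small subunit. Rps27 had the lowest ratio (log2 change -0.79). Rplp1, a protein of the stalk that recruits translation factors, stood at 290.0 and 487 RPKM in knockout livers on high fat and chow, and 318 and 455 RPKM in flox livers on high fat and chow (log2 change in knockout livers -0.74). Rps21, on the exit side of the messenger RNA channel, stood at 233 and 389 RPKM in knockout livers on high fat and chow, and 346 and 409 RPKM in flox livers on high fat and chow (log2 change in knockout livers -0.74). The ratios nearest to chow were those of Rpl21, Rpl26 and Rpl13a (log2 change -0.23). Rpl21 stood at 161 and 180.0 RPKM in knockout livers on high fat and chow, and 142 and 194 RPKM in flox livers on high fat and chow (log2 change in knockout livers -0.16). Rpl26, at the exit of the peptide tunnel, stood at 390.4 and 450.4 RPKM in knockout livers on high fat and chow, and 399 and 489.5 RPKM in flox livers on high fat and chow (log2 change in knockout livers -0.21). Rpl13a thus had one of the smallest changes in knockout livers and one of the largest in flox livers.

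Transcript length moved with the diet change in knockout livers. The members' annotated transcripts have a median length of 729 bases, and 11 of the 39 at or under that length were lower by 1.5-fold or more on high fat as deposited, against 3 of the 38 longer ones. Their median log2 changes were -0.47 and -0.40. The Spearman correlation of length with the diet change over the 77 members was 0.35 in knockout livers and -0.02 in flox livers. The GC content of the transcript had a Spearman correlation of -0.03 with the diet change in knockout livers and -0.42 in flox livers. These are descriptions across genes measured in the same libraries, and genes are not independent replicates. Against genes of both similar RPKM and similar transcript length, the members' median difference for the diet in knockout livers was 0.00. The part of length, GC content or RNA quality in these changes was not tested.

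**Figure D3:**
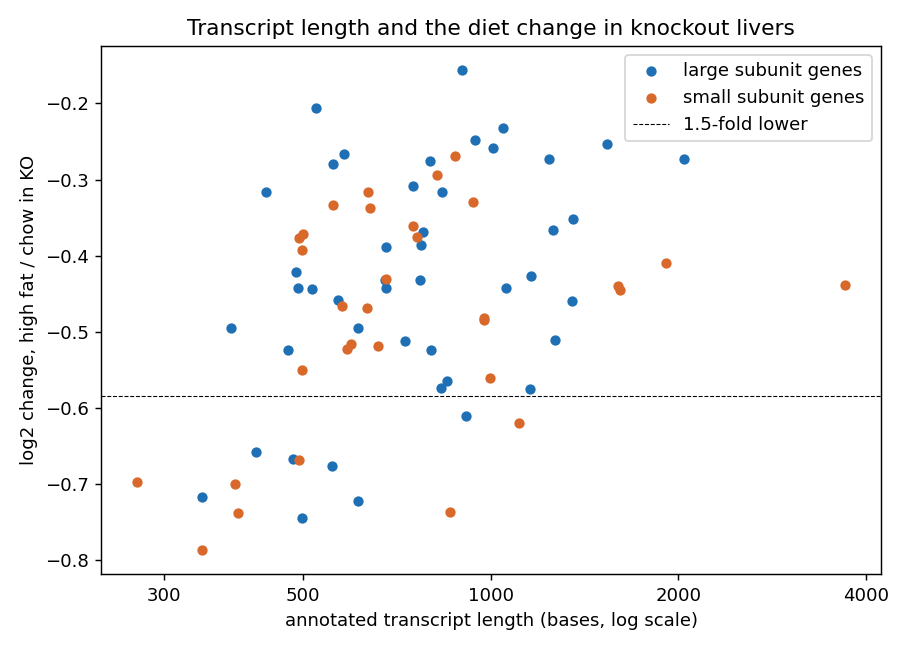
Annotated transcript length in bases (log scale) against the log2 change with the high-fat diet in knockout livers for the 77 members, blue for the large and orange for the small subunit. Of the 14 points under the dashed line at 1.5-fold lower, 11 belong to transcripts of at most 729 bases.

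Between knockout and flox livers on chow, ribosomal protein genes differed little as deposited. The median log2 change was 0.02, with 47 members higher and 30 lower, beside a median of -0.02 and 54.2% lower among 10322 genes. The large subunit median was 0.01 and the small subunit median 0.04. Rpl10 was the 1 member lower by 1.5-fold or more (background 3.84%), and 0 were higher by as much (background 1.09%). By 1.25-fold or more, 1 member was lower (background 9.98%) and 1 higher (background 4.11%), and the lower was Rpl10. Genes of similar RPKM had a typical change of -0.14, and the members' median difference from them was 0.15, with 73 of 77 above. Their share of all RPKM was 6.05% in knockout chow and 5.32% in flox chow livers. At equal sums over genes other than the 50 most abundant the median was 0.17 with 73 of 77 higher (72.6% of all genes), and 0 members were past 1.5-fold.

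Rps27 and Rps16 were among the highest ratios on chow. Rps27 had a log2 change of 0.28. Rps16, whose tail contacts the transfer RNA at the decoding site, stood at 377 and 579.9 RPKM in knockout livers on high fat and chow, and 349 and 484 RPKM in flox livers on high fat and chow (log2 change in knockout on chow 0.26). Rpl10, Rpl31 and Rps23 had the lowest ratios. Rps23, a protein of the decoding centre, stood at 315 and 396 RPKM in knockout livers on high fat and chow, and 361 and 456 RPKM in flox livers on high fat and chow (log2 change in knockout on chow -0.20).

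On the high-fat diet the direction of the knockout change depended on scaling. As deposited, 54 of 77 members were lower in knockout than in flox livers, against 70.1% of 10327 genes, with a median log2 change of -0.08, and both rescalings turned that median positive. It was 0.09 with 53 of 77 higher (51.6% of all genes) at a median log2 ratio of 0 over genes. At equal sums over genes other than the 50 most abundant it was 0.22 with 67 of 77 higher (68.7% of all genes). The median of all genes was -0.13 as deposited and 0.01 and 0.12 under these rescalings. Genes of similar RPKM had a typical change of -0.44, and the members' median difference from them was 0.34, with 71 of 77 above. That difference ranged from 0.31 to 0.35 over 12 alternatives and was 0.34 in each subunit. The rescalings among them are no check of it. They multiply all genes of a group by the same factor, which nearly cancels in such a difference. By 1.5-fold or more, 0 members were lower (background 8.33%) and 0 higher (background 3.2%), and by 1.25-fold or more 9 were lower (background 24.3%) and 1 higher (background 8.32%).

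The middle 50% of members spanned 0.22 for the knockout on this diet and 0.15 on chow. Rpl12, at the base of the stalk, stood at 229 and 277 RPKM in knockout livers on high fat and chow, and 182 and 251.1 RPKM in flox livers on high fat and chow (log2 change in knockout on high fat 0.33). Rpl29 of the large subunit stood at 366 and 441 RPKM in knockout livers on high fat and chow, and 295 and 424 RPKM in flox livers on high fat and chow (log2 change in knockout on high fat 0.31). Rpl13a followed (log2 change 0.30). At the low end were Rps21 (log2 change -0.57), Rpl10 and Rps29. Rps29, a zinc-binding protein of the small subunit head, stood at 373 and 606 RPKM in knockout livers on high fat and chow, and 531 and 631 RPKM in flox livers on high fat and chow (log2 change in knockout on high fat -0.51). The knockout changes on the 2 diets share no group, and their Pearson correlation over the 77 members was 0.32, or 0.22 without Rpl10. The diet changes in the 2 genotypes, which share no group either, had a Pearson correlation of -0.14. With 1 value per group such weak relations are a description of these libraries.

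Rpl10 stood apart from the other members in the knockout change on chow. On high fat it did not, since Rps21 was lower (log2 change -0.57) and Rps29 was close (-0.51). Rpl10 encodes a protein that joins the large subunit late, near the peptidyl transferase centre. Its level was 355 RPKM in knockout high-fat and 430.1 RPKM in knockout chow livers, against 511 RPKM in flox high-fat and 687 RPKM in flox chow livers. Both knockout values lay below both flox values, at 69.5% of flox on high fat and 62.6% on chow (log2 changes -0.52 and -0.67). At equal sums over genes other than the 50 most abundant, these log2 changes were -0.22 on high fat and -0.53 on chow. Its difference from genes of similar RPKM was -0.08 on high fat and -0.56 on chow, the lowest of the 77 on chow. Rpl10 has 10 pseudogene copies of at least 95% identity in the annotation, and how reads were shared with them is unknown. Rpl31, a protein at the exit of the peptide tunnel, had the same order of groups. It stood at 115 RPKM in knockout high-fat and 155 RPKM in knockout chow livers, against 162 RPKM in flox high-fat and 189.7 RPKM in flox chow livers, with log2 changes in knockout of -0.49 on high fat and -0.29 on chow.

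**Figure D4:**
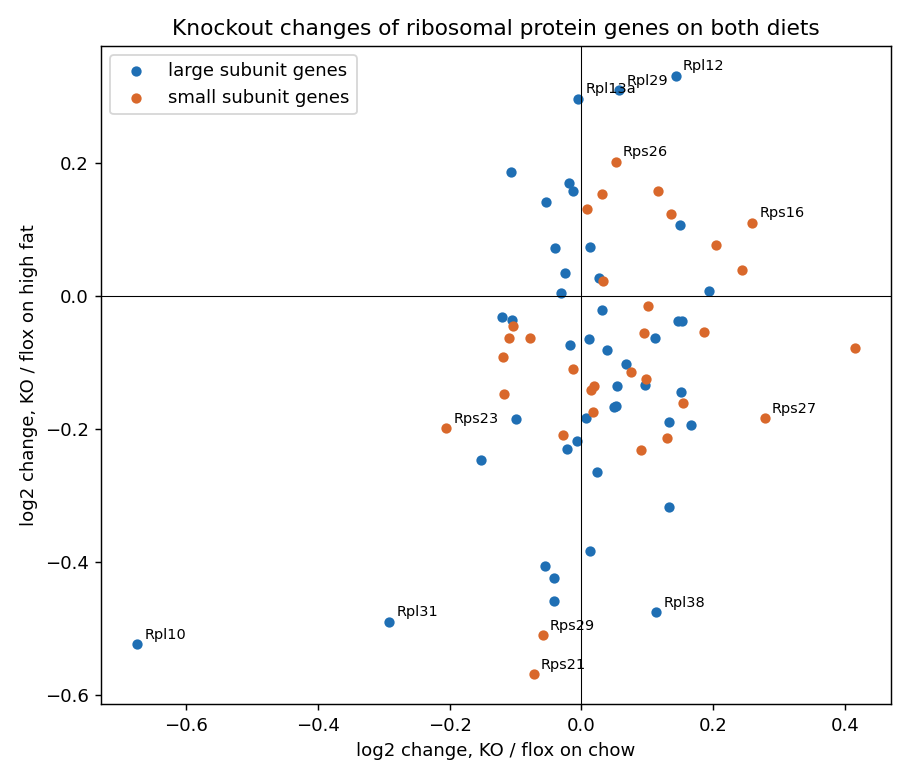
Log2 change in knockout against flox livers on chow (horizontal) and on the high-fat diet (vertical) for the 77 members, blue for the large and orange for the small subunit, with some of the extremes named. Rpl10 lies alone on the chow axis at -0.67. On the high-fat axis it lies at -0.52, where Rps21 is lower at -0.57.

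The knockout change on high fat minus that on chow had a median of -0.15 over the members, beside -0.10 for all genes, and 54 of 77 were below 0 (background 67.9%). It was -0.017 at a median log2 ratio of 0 over genes, and of the other sign, 0.00609, at equal sums over genes other than the 50 most abundant. Against genes of similar RPKM the members' median was 0.12 with 58 of 77 above. Rpl38 had the lowest value (-0.59) and was the 1 member lower by 1.5-fold or more (background 3.03%), while 0 were higher (background 2.32%). That call was lost under both rescalings, where Rpl38 had -0.45 and -0.43, and with a pseudocount of 5. By 1.25-fold or more, 13 were lower (background 15.8%) and 0 higher (background 7.09%). Rpl13a had the highest value (0.30).

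By place in the ribosome, median diet changes ran from -0.52 to -0.29 in knockout and from -0.46 to -0.12 in flox livers. The 4 stalk genes Rplp0, Rplp1, Rplp2 and Rpl12 had median log2 changes with the diet of -0.50 in knockout and -0.36 in flox livers. The 5S particle genes Rpl5 and Rpl11 had medians of -0.42 in knockout and -0.12 in flox livers. For 8 proteins near the exit of the peptide tunnel these medians were -0.29 in knockout and -0.34 in flox livers, and for 5 at the entry and decoding sites -0.37 and -0.34. For 5 on the exit side of the messenger RNA channel they were -0.52 in knockout and -0.46 in flox livers. Within the stalk, Rplp0, the scaffold, stood at 217 and 277 RPKM in knockout livers on high fat and chow, and 258 and 308 RPKM in flox livers on high fat and chow. Rplp2, a partner of Rplp1, stood at 228 and 360.2 RPKM in knockout livers on high fat and chow, and 284 and 329 RPKM in flox livers on high fat and chow. Rpl11 stood at 225 and 335 RPKM in knockout livers on high fat and chow, and 302 and 345 RPKM in flox livers on high fat and chow. Rps6, the target of S6 kinase, stood at 185 and 223 RPKM in knockout livers on high fat and chow, and 197 and 242 RPKM in flox livers on high fat and chow. Rpsa, also known as the laminin receptor, stood at 157 and 213 RPKM in knockout livers on high fat and chow, and 173 and 231 RPKM in flox livers on high fat and chow. In Rplp2 and Rpl11 the knockout value on high fat was well below the other 3, while in Rps6 and Rpsa the 2 high-fat values lay close together.

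Other genes of protein synthesis were taken from lists. Of 13 elongation factor and TOP messenger RNA genes, 11 were lower with the diet in knockout livers (median -0.42) and 10 in flox livers (median -0.08), where 66.4% and 52.5% of all genes were lower, and 2, Fau among them, were lower by 1.5-fold or more in knockout livers. Fau stood at 203 and 328 RPKM in knockout livers on high fat and chow, and 253 and 310.5 RPKM in flox livers on high fat and chow. The 30 initiation factor genes had diet medians of -0.27 in knockout and -0.06 in flox livers. In 44 ribosome assembly genes they were -0.22 in knockout livers, with 40 genes lower, and -0.18 in flox livers, with 31 lower. Myc, a transcription factor that drives ribosome production, was the 1 gene of that list lower by 1.5-fold or more, in flox livers, and stood at 2.98 and 3.65 RPKM in knockout livers on high fat and chow, and 2.20 and 3.96 RPKM in flox livers on high fat and chow. In 19 genes of RNA polymerase I, which makes ribosomal RNA, the diet medians were -0.22 in knockout and -0.19 in flox livers, with 18 genes lower in each. Polr2l, a subunit shared by the nuclear RNA polymerases, was the 1 of them lower by 1.5-fold or more, in knockout livers, at 26.3 and 40.8 RPKM in knockout livers on high fat and chow, and 30.6 and 36.2 RPKM in flox livers on high fat and chow. The medians of all genes were -0.11 in knockout and -0.01 in flox livers.

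For knockout against flox, the medians of these 4 lists ran from -0.27 in elongation genes to -0.01 in assembly genes on high fat, and from -0.02 to 0.08 on chow. In these lists Eef1g and Eif4a2 were the 2 genes lower by 1.5-fold or more in knockout livers on high fat. Eef1g, a subunit of an elongation factor, stood at 48.9 and 68.6 RPKM in knockout livers on high fat and chow, and 82.2 and 84.1 RPKM in flox livers on high fat and chow. Eif4a2, a helicase of initiation, stood at 38.9 and 46.8 RPKM in knockout livers on high fat and chow, and 61.1 and 53.8 RPKM in flox livers on high fat and chow.

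**Figure D5:**
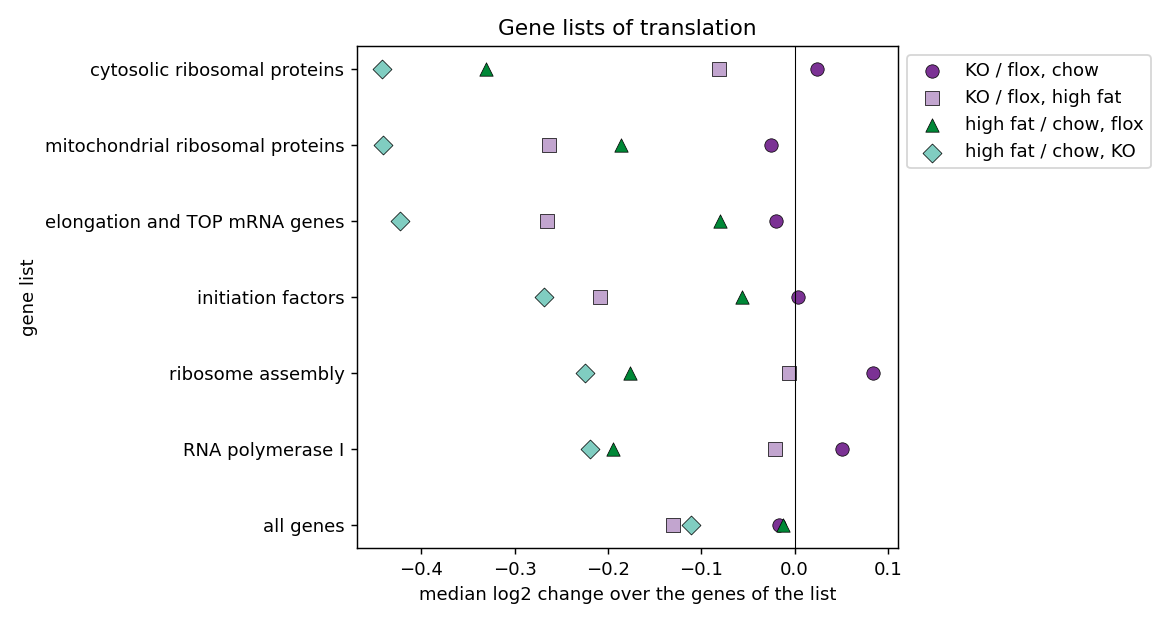
Median log2 change of 6 gene lists and of all genes (rows) in 4 comparisons (symbols). For the diet in flox livers the cytosolic ribosomal proteins lie lowest at -0.33, and for the diet in knockout livers they lie beside the mitochondrial ribosomal proteins at -0.44.

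The 74 genes for proteins of the mitochondrial ribosome, which is made from separate genes, had another pattern in the knockout comparison on high fat. All 74 had less RPKM in knockout than in flox livers, against 70.1% of all genes, with a median of -0.26, beside -0.08 for the cytosolic genes. The direction depended on scaling here too, with a median of -0.10 and 54 of 74 lower at a median log2 ratio of 0 over genes, and 0.03 and 35 of 74 lower at equal sums over genes other than the 50 most abundant. Against genes of similar RPKM their median difference was -0.03, beside 0.34 for the cytosolic genes. These differences have unlike comparators, because genes of similar RPKM had a typical change of -0.25 for the mitochondrial set and -0.44 for the cytosolic set. With the diet their medians were -0.44 in knockout and -0.19 in flox livers. The difference between these gene sets could not be tested with 1 value per group.

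Markers of other cells moved with the same groups. In whole liver, fewer cells of a type and less RNA per cell cannot be told apart. The 7 cholangiocyte markers summed to 118 RPKM in knockout high-fat and 46.3 RPKM in knockout chow livers, against 24.99 RPKM in flox high-fat and 23.6 RPKM in flox chow livers, of which Spp1 made up 103 RPKM in knockout high-fat livers. The 7 macrophage markers measured summed to 229 RPKM in knockout high-fat and 136 RPKM in knockout chow livers, against 175 RPKM in flox high-fat and 142 RPKM in flox chow livers, and 5 were higher by 1.5-fold or more with the diet in knockout livers. Stellate cell markers summed to 155 RPKM in knockout high-fat and 121 RPKM in knockout chow livers, against 92.3 RPKM in flox high-fat and 96.7 RPKM in flox chow livers. Dcn made up 130 RPKM of the stellate sum in knockout high-fat livers. The cholangiocyte, macrophage and stellate sums were highest in knockout high-fat livers, as were the lymphocyte and dividing-cell sums given below. Endothelial markers summed to 62.2 RPKM in knockout high-fat and 60.6 RPKM in knockout chow livers, against 64.2 RPKM in flox high-fat and 69.5 RPKM in flox chow livers. Clec4g made up 35.5 and 39.9 RPKM of these sums in knockout livers on high fat and chow, and 35.2 and 47.8 RPKM in flox livers. It was the 1 of 6 endothelial markers lower with the diet. The other 5 were higher in both genotypes, and the median log2 change of the 6 was 0.29 in knockout and 0.32 in flox livers. Lymphocyte markers summed to 5.93 RPKM in knockout high-fat and 4.16 RPKM in knockout chow livers, against 3.92 RPKM in flox high-fat and 3.65 RPKM in flox chow livers, and markers of dividing cells to 2.99 RPKM in knockout high-fat and 0.769 RPKM in knockout chow livers, against 0.752 RPKM in flox high-fat and 0.796 RPKM in flox chow livers. Red cell genes summed to 872 RPKM in knockout high-fat and 1829 RPKM in knockout chow livers, against 1743 RPKM in flox high-fat and 1292 RPKM in flox chow livers, lowest in knockout high-fat livers. The 4 hepatocyte markers above 0 in each group summed to 8866 RPKM in knockout high-fat and 13488 RPKM in knockout chow livers, against 17457 RPKM in flox high-fat and 19621 RPKM in flox chow livers. Alb was listed at 0 in each group, and Serpina1a at 1858 RPKM in knockout high-fat livers and at 0 in the other 3 groups, which can be failed estimates. The part of cell composition in the ribosomal protein values was not tested.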

How the data were processed

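Liver RNA of 8 libraries in 4 groups is represented by 1 file per group, assigned by the group's name in the file name. The authors deposited RPKM values, with 1 column per file. The submitters' processing notes list TopHat2 2.0.7, Cuffdiff 2.1.1 and build mm10 and assign them no role. Annotation, scaling and the way libraries were combined: not given in the sources used here. Depth is unknown, because low RPKM multiplied by transcript length came within 0.05 of a whole multiple, up to 5, for 15.2% to 18.9% of values per group, too few to recover reads.

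Repeated symbols were summed (23179 rows, 22923 symbols). Genes with at least 1 RPKM in a group were kept (10351), 1 RPKM was added before taking log2 ratios, which understates changes of low genes, and a gene at 0 in either group was left out. Neighbours in RPKM were the 200 non-members nearest in mean log2 level. Length, GC content and pseudogenes came from GENCODE M21 (shortest principal transcript) and BLAST 2.17.0, with a copy defined as at least 95% identity over 80% of the shorter sequence and 100 bases. Python 3.11.15, pandas 2.3.3 and matplotlib 3.10.9 were used, and the steps were tested on simulated data. By rule the text names the 5 highest members of each subunit, the 3 highest and 3 lowest ratios per comparison, the stalk, 5S particle and paralog genes, Rps6, Rpsa, and up to 4 genes past 1.5-fold per other list. Members and lists were chosen with earlier results of these data known. The mitochondrial comparison, the 1.25-fold threshold, the start-site letters and the length and GC relations were added after the data were seen. Some genes that this rule names are not reported here.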

Additional observations from a re-analysis of the deposited data

Results flagged for a closer look

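The median knockout change of the members had opposite signs on the 2 diets, and the difference was not tested. For all 77 it was -0.0813 on high fat and 0.02 on chow, for the large subunit -0.0813 and 0.01, and for the small subunit -0.0841 and 0.04 (log2, knockout against flox). These medians are small, and the median of all 77 on high fat was positive under both rescalings.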

How the results depend on the processing

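Alternatives were pseudocounts of 0.1 and 5, no filter and a filter of 5 RPKM, 2 rescalings, the highest of repeated rows, other neighbour sets and other member sets. With no spread between libraries, a shift under 0.1 on the log2 scale was read as small. The difference from genes of similar RPKM stayed within that limit in each comparison under its 12 alternatives, and the large minus small subunit median under its 9. For both measures the rescalings among these are no check. They multiply all genes of a group by the same factor, which nearly cancels in a difference between gene sets. The members' median moved past the limit of 0.1 with scaling only. At a median log2 ratio of 0 over genes it was 0.0865 for knockout against flox on high fat, -0.30 for the diet in knockout livers and -0.017 for the knockout change on high fat minus that on chow. At equal sums over genes other than the 50 most abundant it was 0.17 for the knockout on chow, 0.22 on high fat, -0.20 for the diet in flox and -0.15 in knockout livers, and 0.00609, of the other sign, for that last difference. That rescaling left 0 members past 1.5-fold for the knockout on chow, 3 on high fat, 0 for the diet in knockout livers and 0 for the last difference. The first rescaling left 4 for the diet in knockout livers in place of 14, and 0 for the last difference, as did a pseudocount of 5. At 1.25-fold, 2 and 10 members passed for the knockout on chow and high fat, 42 and 60 for the diet in flox and knockout livers, and 13 for the last difference. Counts of all genes past 2-fold ranged over the 5 comparisons from 66 to 303, from 124 to 494 with a pseudocount of 0.1 and from 40 to 156 with 5. No paired analysis was possible because each group has 1 column that carries no replicate number, and for the same reason no library could be left out.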

Other observations

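Rows outside the symbol rule, chosen after their values were seen, include a close copy of a member. Rpl36al, whose product differs little from that of Rpl36a, stood at 133 RPKM in knockout high-fat and 178 RPKM in knockout chow livers, against 287 RPKM in flox high-fat and 302 RPKM in flox chow livers. Its log2 changes in knockout were -1.10 on high fat and -0.76 on chow. Rpl36a stood at 160.2 and 255 RPKM in knockout livers on high fat and chow, and 183 and 227 RPKM in flox livers on high fat and chow, with log2 changes in knockout of -0.19 on high fat and 0.17 on chow. Rpl22l1, the paralog of Rpl22, was lower with the diet in both genotypes, at 14.1 and 23.5 RPKM in knockout livers on high fat and chow, and 10.9 and 18.4 RPKM in flox livers on high fat and chow. Rpl7l1 stood at 10.8 and 15.9 RPKM in knockout livers on high fat and chow, and 14.1 and 16.9 RPKM in flox livers on high fat and chow. The row Rps4y2, a synonym of Rps4l in the RefSeq table, stood at 8.81 and 15.7 RPKM in knockout livers on high fat and chow, and 10.7 and 17.9 RPKM in flox livers on high fat and chow.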
